A study of Mus musculus with 2 samples.

Results

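The naive pluripotency transcription factors examined here are Klf2, Klf4, Klf5, Esrrb, Tfcp2l1, Zfp42, Tbx3, Prdm14, Nr5a2 and Gbx2, taken by gene name from the deposited expression table. These 10 genes, of 29833 in the table, hold 13 of its 37178 records, where a record is 1 gene with 1 transcript biotype. All 10 genes have a protein-coding record, and Esrrb, Tbx3 and Tfcp2l1 each have a second record for a noncoding transcript of the gene (called lncRNA in the table). They were measured by stranded total RNA-seq in F123 mESCs, a single male line whose paternal genome is CAST and whose maternal genome is S129, in 2 biological replicates. The cells had been taken off feeder fibroblasts for at least 2 passages, in medium with a doubled LIF concentration. There was no other cell line, treatment or genotype, so the comparison is between the CAST and the S129 allele within the same cells. Since no cross in the opposite direction was measured, the strain of an allele and the parent it came from cannot be told apart. The deposited values pool both replicates, so no spread between replicates is available, and intervals and standard errors cover counting error only. A read over more than 1 variant may enter the counts more than once, so that even the counting error can be understated.

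Naive pluripotency is the state of the preimplantation epiblast, which mESCs keep in culture with LIF. LIF acts through STAT3 on genes such as Klf4, Tfcp2l1 and Gbx2, while Klf2, Tbx3, Esrrb and Nr5a2 act alongside or downstream of other inputs, and the factors activate each other and the core factors Pou5f1, Sox2 and Nanog. Several of them can replace each other in part, so that the network tolerates the loss of single members.

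The cells carried the markers of mESCs. All 10 markers of this cell type in the list used were at or above a TPM of 1, from 7.73 for Lin28a to 483 for Utf1, with a summed TPM of 2059. Zfp42, itself 1 of the naive factors examined here, is among these markers, with a TPM of 119. Of 12 fibroblast feeder markers, 4 reached a TPM of 1, led by a Thy1 lncRNA record at 7.0 and followed by Twist1 at 3.41, the summed TPM was 16.1, and Lum, Dcn and Twist2 were each below 0.04. Markers of primed or formative epiblast summed to a TPM of 99.8 over 6 genes, of which 5 reached a TPM of 1. They were led by an Otx2 lncRNA record at 34.7, Zic2 at 30.2 and Dnmt3b at 26.2, and Fgf5 was the lowest at 0.323. All 6 markers of primitive endoderm reached a TPM of 1, from 3.81 for Gata4 to 21.4 for Sox17, and summed to 51.9. Of 6 markers of the early germ layers 4 did, with a sum of 22.8. The part of cells with these other markers in the levels below was not tested. In RNA from a population, fewer cells of a type and less RNA per cell cannot be told apart.

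All 13 records passed the TPM minimum of 1, and the levels of the 10 protein-coding records spanned from 9.03 for Nr5a2 to 128.9 for Klf5. TPM is scaled per length, and unless stated it is the value over exons and introns. Introns fill most of some records (Esrrb, 1344 exon bases in 48.9 kb) and less of others (Klf5, 2852 exon bases in 6.17 kb). Levels set side by side between genes can thus also reflect intron content. The median of the 10 records was 25.7, against 6.70 over the 10902 expressed protein-coding records. The 2 most abundant factors, Klf5 and Zfp42, lay above 97.7% and 97.4% of the 17956 expressed records of either biotype. Nr5a2, the lowest protein-coding record, lay above 61.1%. With 1 pooled value per record, none of the neighbors in this order can be tested against each other.

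Among the Krüppel-like factors, zinc finger proteins that bind GC-rich and CACCC-type sites, Klf5 had a TPM of 128.9, Klf4 58.1 and Klf2 47.5. Of 13 KLF genes with a protein-coding record at a TPM of at least 1, these ranked the highest, the next and the fourth, with Klf10, a TGF-beta-inducible family member, between Klf4 and Klf2 at 49.6. Klf9 followed at 32.6 and Klf6 at 30.02. The 3 naive KLF genes thus stood near the top of their family.

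Zfp42, also known as Rex1, a zinc finger gene related to Yy1 and a widely used marker of the naive state, had a TPM of 119. Tbx3, a T-box factor, had 26.1 in its protein-coding and 51.3 in its lncRNA record, and Gbx2, a homeobox factor, had 25.2. The orphan nuclear receptors Esrrb and Nr5a2 had 14.4 and 9.03, and the lncRNA record of Esrrb had 24.4. Prdm14, a PR-domain zinc finger protein that represses genes of FGF signaling and de novo DNA methylation in mESCs, had 12.2, and Tfcp2l1, a grainyhead-family factor, had 12.1 in its protein-coding and 3.17 in its lncRNA record. By TPM over exons and introns, the lower of these factors were far below Klf5. Counted over exons only, the order changed mainly for Esrrb, whose protein-coding record had a TPM of 7.23 over exons and then ranked 12 instead of 9 among the 13 records. The length used to scale the exon values is not stated. The lower rank of Esrrb, with 1344 exon bases in a record of 48.9 kb, therefore cannot be read as a low level of its mature RNA. Zfp42 had 98.7 and Klf5 147 over exons.

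**Figure D1:**
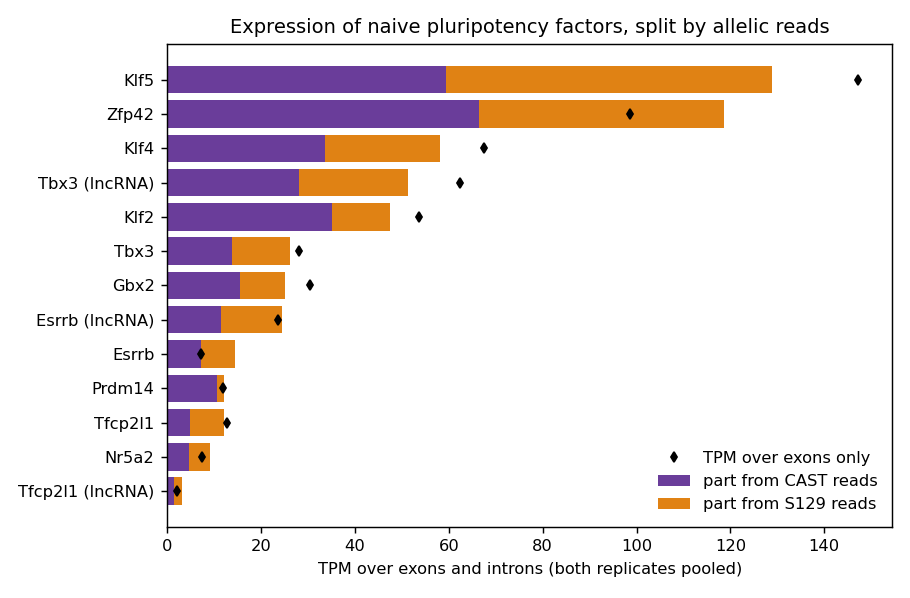
TPM of the 13 records of the 10 naive factors (bars, exons and introns, both replicates pooled), split by the share of CAST (purple) and S129 (orange) allelic reads, with the TPM over exons as black diamonds. Klf5 and Zfp42 are the highest at 128.9 and 119, and the S129 part of Prdm14 is the smallest share of any bar.

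What a record covers differed between the genes. By the GENCODE M21 annotation of the same genome build, the records of Klf2, Gbx2 and Prdm14 span the whole gene, and those of Zfp42, Tbx3 and Tfcp2l1 over 98%. In contrast, the protein-coding record of Nr5a2 is a transcript of 8.19 kb in a gene of 118 kb (6.95%), that of Esrrb covers 48.9 of 161 kb (30.5%), that of Klf4 1.74 of 5.32 kb (32.7%) and that of Klf5 6.17 of 16.3 kb (37.8%). The transcripts chosen for Klf4 and Nr5a2 are annotated as incomplete at their 3′ end. Values of these genes therefore describe the part of the gene within the record. The lncRNA records overlap the protein-coding records of the same genes and can hold the same reads, so they are not independent of them.

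The upstream sequences of 3 genes are shown because the start of the record coincides with the RefSeq start to within 73 bases, and because they cover an ASE gene (Klf2), a related gene without a call (Klf4) and the factor with the most allelic reads (Zfp42). RefSeq promoter windows (GRCm38.p6, 250 bases before and 50 after a start) were given for 7 of the 10 genes, and not for Klf5, Tbx3 and Prdm14. For Esrrb the record started 48473 bases downstream of the nearest of these starts, and for Nr5a2 4457 bases. Printed 5′ to 3′ are only the bases before any annotated exon of the gene, chr8:72318812-72319032 on the plus strand for Klf2, chr4:55532476-55532725 on the minus strand for Klf4 and chr8:43307010-43307259 on the minus strand for Zfp42. Capitals mark matches to GGGNGNGG on either strand, letters that cover GC-box and CACCC-type sites and can overlap each other and the GC box GGGCGG.
Klf2: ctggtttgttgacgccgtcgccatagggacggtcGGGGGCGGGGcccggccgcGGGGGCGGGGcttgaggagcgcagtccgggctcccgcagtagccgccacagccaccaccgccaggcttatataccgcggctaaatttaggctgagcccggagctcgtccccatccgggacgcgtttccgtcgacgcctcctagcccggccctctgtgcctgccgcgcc
Klf4: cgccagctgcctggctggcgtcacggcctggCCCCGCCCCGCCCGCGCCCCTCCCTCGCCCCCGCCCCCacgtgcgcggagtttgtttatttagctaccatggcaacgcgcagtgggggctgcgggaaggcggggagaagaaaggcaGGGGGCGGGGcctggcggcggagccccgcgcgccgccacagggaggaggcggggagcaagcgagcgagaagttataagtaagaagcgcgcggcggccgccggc
Zfp42: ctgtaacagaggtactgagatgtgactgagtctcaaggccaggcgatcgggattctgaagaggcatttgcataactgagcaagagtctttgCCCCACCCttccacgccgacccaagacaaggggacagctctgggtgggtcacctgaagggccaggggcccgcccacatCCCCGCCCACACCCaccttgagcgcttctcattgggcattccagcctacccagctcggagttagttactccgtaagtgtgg
The stretch of Klf4 held 9 matches, that of Klf2 4 and that of Zfp42 3, and GGGCGG was found 4, 2 and 2 times. Over the whole windows, 8 of 9 windows of naive factors held GGGNGNGG, as did 49.5% of the 32851 windows of all genes, and 4 held GGGCGG (35.7% of all). TATAAA was found in 2 of the 9 (13.6% of all) and CCAAT in 3 (37.4% of all). No window of a naive factor held TCAAGGTCA, a site of ESRRB, or TTCCNGGAA, a site of STAT3, which 0.423% and 1.15% of all windows held. These letter matches are descriptions and were not related to expression.

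Allele-specific expression (ASE) was found for Prdm14 and Klf2, both toward CAST, and for none of the other records. Reads were assigned by the variants they cover, and an ASE record had at least a 2-fold difference, an adjusted p of at most 0.05 (two-sided exact binomial test of equal CAST and S129 reads, Benjamini-Hochberg adjustment over the 18632 records with allelic reads) and a TPM of at least 1. Thus 2 of 13 records (15.4%) were ASE, or 2 of the 10 protein-coding records. This is near the background, where 14.1% of all 15935 tested records and 12.7% of tested protein-coding records were ASE. Toward CAST, the background was 8.33% of all tested records and 7.80% of protein-coding ones. Toward S129, where 0 of the 13 records were ASE, it was 5.78% of all tested records. Since they rest on only 2 ASE records, these shares are no result about the group, and what follows concerns single genes. Log2 fold changes are CAST over S129 reads.

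Prdm14 on chromosome 1 (13113457 to 13127163, minus strand, mm10) had 1765 CAST and 250 S129 reads. The CAST share was 87.6% (95% exact Clopper-Pearson interval 86.1 to 89.0) and the log2 fold change 2.82 (SE 0.10, adjusted exact binomial p = 6.79e-278), which is 7.06-fold. If the share at the variants holds for the whole record, 10.7 of its TPM of 12.2 came from CAST and 1.51 from S129. Prdm14 was not monoallelic, since 12.4% of reads came from S129. The imbalance was large for a record of this depth. Of 4448 tested records with at least 1000 allelic reads, 34 (0.764%) were at least as far from balance, 23 of them toward CAST. The reads came from 53 variants, 22 in exons and 31 in introns, with 38.0 reads per variant in the mean. With the reads scaled down to this mean per variant, a setting chosen after seeing the data, the call stayed (log2 fold change 2.72, adjusted exact binomial p = 0.000157).

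Klf2 on chromosome 8 (72319033 to 72321656, plus strand) had 133 reads from CAST and 47 from S129. The CAST share was 73.9% (95% exact interval 66.8 to 80.1) and the log2 fold change 1.501 (SE 0.24, adjusted exact binomial p = 6.89e-10), or 2.83-fold. The lower end of the interval lies just above the share that a 2-fold difference gives (66.7%). The same split of TPM gives 35.1 from CAST and 12.4 from S129. The call of Klf2 rests on less than that of Prdm14: 4 variants, 1 in an exon and 3 in introns. At 3 of these 4 variants S129 carries the base that differs from the mm10 reference. Over all variants of the table this was the case for 11.1%. Reads with the reference base can map more readily, and its part in the imbalance of Klf2 was not tested. Of 1155 tested records in which S129 differs from the reference at most variants, 10.3% were ASE toward CAST and 6.58% toward S129, against 8.18% and 5.72% of the others. Of 355 records of that kind with at most 4 variants, the class of Klf2, 12.1% were ASE toward CAST and 10.1% toward S129. Of 4013 records with at most 4 variants 20.9% were ASE. A beta-binomial test that assumes a correlation of 0.05 between reads of a gene no longer called Klf2 (adjusted p = 0.454), while it still called Prdm14 (adjusted p = 0.00449).

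Klf4 and Klf5, the other naive KLF genes, were closer to balance than Klf2. Klf4 on chromosome 4 had 105 reads from CAST and 76 from S129, a CAST share of 58.0% (interval 50.5 to 65.3), with a log2 fold change of 0.47 (SE 0.22) and an adjusted exact binomial p of 0.0753. Klf5 on chromosome 14 had 1153 CAST and 1347 S129 reads (46.1% CAST, interval 44.2 to 48.1) and a log2 fold change of −0.22 (SE 0.06). It passed the test (adjusted exact binomial p = 0.000388) at a difference well under 2-fold, and not in a beta-binomial test that assumes a correlation of 0.01 between reads of a gene (adjusted p = 0.765). The intervals of Klf4 and Klf5 do not overlap that of Klf2, but they cover counting error only, and the genes were not tested against each other. All 3 genes lie on different chromosomes.

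Tfcp2l1 was the protein-coding record farthest toward S129. It had 2622 CAST and 3848 S129 reads (40.5% CAST, interval 39.3 to 41.7), a log2 fold change of −0.55 (SE 0.04) and an adjusted exact binomial p of 3.40e-51, so that S129 was 1.47-fold higher. In the beta-binomial test at a correlation of 0.01 its adjusted p was 0.233. Its lncRNA record had 70 CAST and 81 S129 reads at 3 variants. Gbx2 had 148 CAST and 94 S129 reads (61.2% CAST, interval 54.7 to 67.3), a log2 fold change of 0.65 (SE 0.19) and an adjusted exact binomial p of 0.00191, against 0.2455 in the beta-binomial test at a correlation of 0.01. Its interval reaches past the share of a 2-fold difference, which it alone does among the records without a call. All 8 variants of Gbx2 lie in exons, and 29.3% of the record overlaps the antisense lncRNA D130058E05Rik, which had a TPM of 22.0 and 122 CAST and 100 S129 reads. The allelic counts are not stated to use strand, so reads of the overlapping stretch can belong to either gene.

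Zfp42 had the most allelic reads, 7927 CAST and 6208 S129, and a CAST share of 56.1% (interval 55.3 to 56.9). Its log2 fold change of 0.35 (SE 0.02, adjusted exact binomial p = 5.28e-46) was a 1.28-fold difference. In the beta-binomial test at a correlation of 0.01 the adjusted p was 0.536. S129 carries the non-reference base at 66 of its 118 variants.

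The nuclear receptor genes and Tbx3 were the closest to balance. Esrrb had 3625 CAST and 3665 S129 reads at 279 variants (49.7% CAST, interval 48.6 to 50.9, adjusted exact binomial p = 0.770), and its lncRNA record had 544 and 611 (47.1% CAST). Nr5a2 had 93 CAST and 88 S129 reads (51.4% CAST, interval 43.9 to 58.9, adjusted exact binomial p = 0.862) at 11 variants. Its 16.5 reads per variant in the mean lie below the minimum of 20 reads per variant that the methods state. Tbx3 had 801 CAST and 722 S129 reads (52.6% CAST, interval 50.05 to 55.1, adjusted exact binomial p = 0.0899), and its lncRNA record had 117 and 97 (54.7% CAST). In 10 of the 13 records the whole interval lay within 2-fold.

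**Figure D2:**
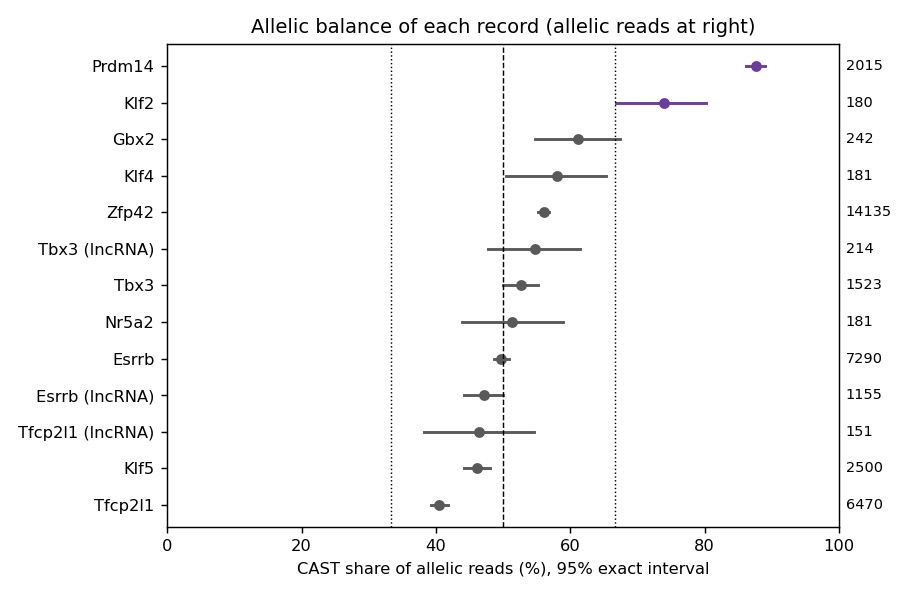
Percent of allelic reads from CAST for the 13 records, ordered by share, with 95% exact intervals for counting error and the number of allelic reads at the right. The dashed line marks equal reads and the dotted lines a 2-fold difference. Prdm14 (87.6%) and Klf2 (73.9%), in purple, are the ASE records, and Gbx2 is the only record whose interval crosses a dotted line.

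Of the 13 records, 6 had an adjusted p of at most 0.05 at any fold (46.2%), against 48.3% of all tested records. The median distance from balance of the 10 protein-coding records was 0.41 on the log2 scale, against 0.33 over all tested protein-coding records, and 7 of the 10 had more CAST than S129 reads, as did 51.0% of all tested protein-coding records. As far from balance as Klf2 or farther were 7.50% of the tested protein-coding records, and 1.98% as far as Prdm14. Pooled over the 10 protein-coding records, 18372 of 34717 reads were CAST (52.9%), against 50.4% of all allelic reads in the table. Without Prdm14 it was 16607 of 32702 (50.8%).

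**Figure D3:**
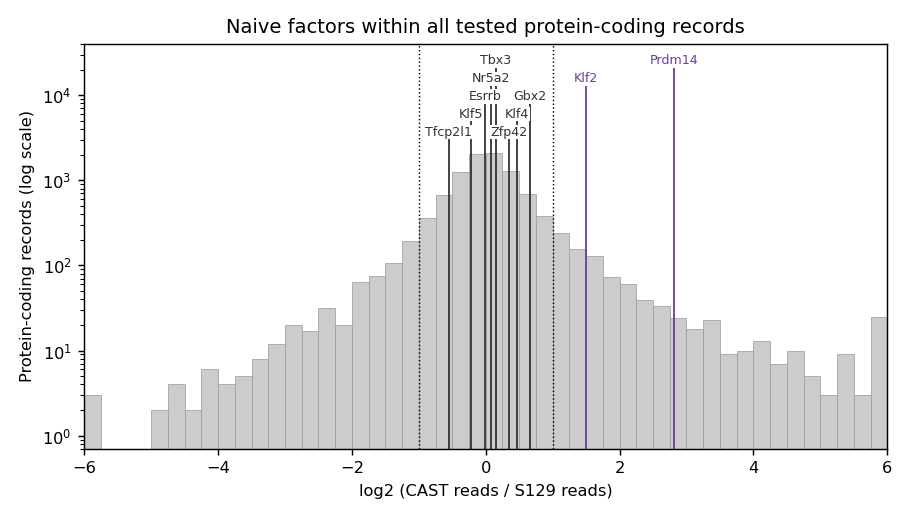
Number of tested protein-coding records by log2 ratio of CAST to S129 reads (grey bars, log scale, the outermost bars also hold all records beyond them), with vertical lines for the 10 naive factors. Klf2 at 1.501 and Prdm14 at 2.82 lie beyond the 2-fold limits (dotted), and the other 8 lie between −0.55 and 0.65.

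The factors also differ in how well they can be phased, that is, in how many variants separate their alleles. Protein-coding records held from 4 variants in Klf2 and 5 in Klf4 to 279 in Esrrb, 627 in all, with a median of 22 against 18 over all tested protein-coding records. Their median of 1769 allelic reads compares with 626. Introns held 107 of the 118 variants of Zfp42, 257 of the 279 of Esrrb, 9 of the 11 of Nr5a2 and 4 of the 5 of Klf4. In Tfcp2l1 and Tbx3 most variants lay in exons, 74 of 105 and 17 of 26, and in Klf5 9 of 18 did. The allelic reads of exon and intron variants are not given apart. The non-reference base lay on CAST at every variant of Klf4, Klf5, Gbx2 and Esrrb. It lay on S129 at 55.9% of the variants of Zfp42, 27.3% of those of Nr5a2, 22.9% of those of Tfcp2l1, 13.2% of those of Prdm14 and 7.69% of those of Tbx3. Most variants of Prdm14 thus have the non-reference base on CAST, and most of those of Klf2 have it on S129. The allelic reads are sums over the variants of a record, so at which variants the reads lie is not known.

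**Figure D4:**
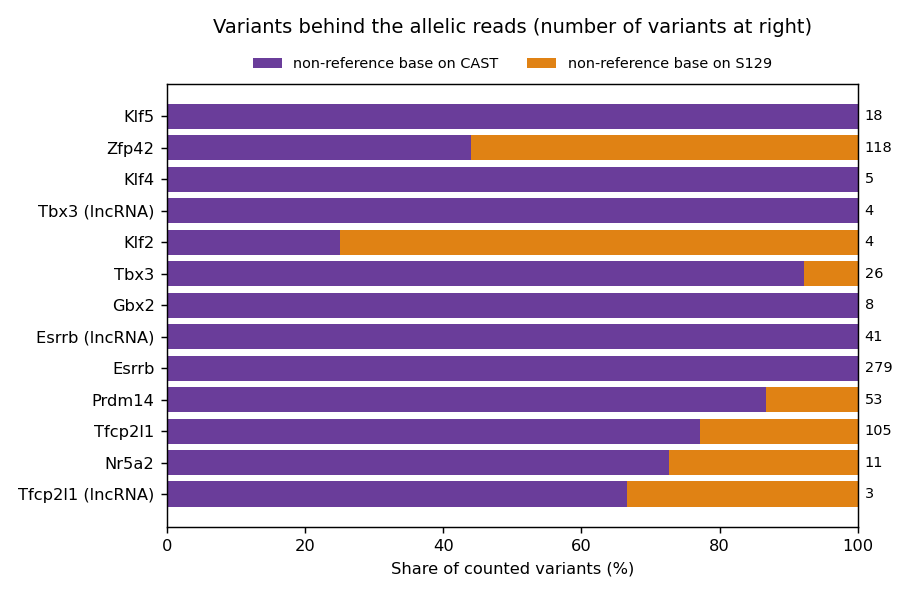
Share of the counted variants of each record at which CAST (purple) or S129 (orange) carries the non-reference base, with the number of variants at the right. Klf2 and Zfp42 are the records with most non-reference bases on S129, at 75.0% and 55.9%.

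The imbalance of Prdm14 was shared by 1 of its neighbors. Within 500 kb, 5 records of other genes that do not overlap Prdm14 were expressed and had at least 20 allelic reads. The lncRNA Gm29283, 34.8 kb downstream, had 464 CAST and 67 S129 reads at 35 variants, a CAST share of 87.4% (interval 84.3 to 90.1) that overlaps that of Prdm14 (log2 fold change 2.79, SE 0.19, adjusted exact binomial p = 2.12e-72). On the other side Ncoa2, a nuclear receptor coactivator gene 12.0 kb upstream, had 830 CAST and 763 S129 reads (52.1% CAST). The remaining 3 records, of Sulf1, Tram1 and Lactb2, named after their values were seen, had log2 fold changes between −0.30 and 0.16. Among the records measured here, ASE near Prdm14 was thus found for Prdm14 and Gm29283, and for neither Ncoa2 nor these 3.

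Klf2 lies in a gene-dense region with 24 such records of 19 genes, of which 1 was ASE. The nearest were Eps15l1, an endocytic adaptor gene 19.3 kb downstream, with 578 reads from CAST and 426 from S129, a log2 fold change of 0.44, and Ap1m1, an adaptor complex gene 69.2 kb upstream, with 56 and 29, a log2 fold change of 0.95. The ASE record was Zfp709, a zinc finger gene 431 kb upstream, with 31 CAST and 5 S129 reads at 2 variants. The median of the 24 records was 0.27, and at 49.3% of their variants S129 carries the non-reference base. This share is uneven, at 100% for the protein-coding record of Eps15l1 and 25.0% for Ap1m1. Over chromosome 8 as a whole the median log2 fold change was 0.09 and 10.8% of tested records were ASE toward CAST, compared with 0.01 and 7.72% for chromosome 1, where Prdm14, Gbx2, Tfcp2l1 and Nr5a2 lie.

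Around Zfp42 the neighbors favored the other allele. Both records of Triml1, a tripartite motif family-like gene 154 kb downstream, were ASE toward S129, the protein-coding one with 557 CAST and 3824 S129 reads (12.7% CAST, interval 11.7 to 13.7, log2 fold change −2.78). Triml2, between Zfp42 and Triml1 and named here after its values were seen, had 2181 CAST and 3735 S129 reads (36.9% CAST, interval 35.6 to 38.1). Zfp42 itself, at 56.1% CAST, did not overlap either of them. Of the 229 variants in these 3 neighboring records, 56.3% differ from the reference on S129, close to the share in Zfp42.

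Of the 11 neighboring records of Esrrb, 2 were ASE toward CAST, 2 toward S129 and 7 biallelic. The lncRNA 4732487G21Rik, 55.1 kb upstream, had 218 CAST and 108 S129 reads. A lncRNA record of Ift43, an intraflagellar transport gene 269 kb upstream and named after its values were seen, had 82 and 41, a difference at the 2-fold limit, while the protein-coding record of Ift43 had 169 and 190. With 1 read added to each allele, 8 instead of 9 neighboring records of the naive factors were ASE. Downstream, Vash1, an angiogenesis inhibitor gene at 157 kb, had 17 and 53, and Angel1, at 179 kb, had 38 and 80. Near Gbx2, Iqca had 110 CAST and 27 S129 reads in its lncRNA record, 111 kb away. No neighboring record of Klf4, Klf5, Tfcp2l1, Tbx3 or Nr5a2 was ASE. In all, 9 of 74 neighboring records (12.2%) were ASE, 5 toward CAST and 4 toward S129, against the background of 14.1%.

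**Figure D5:**
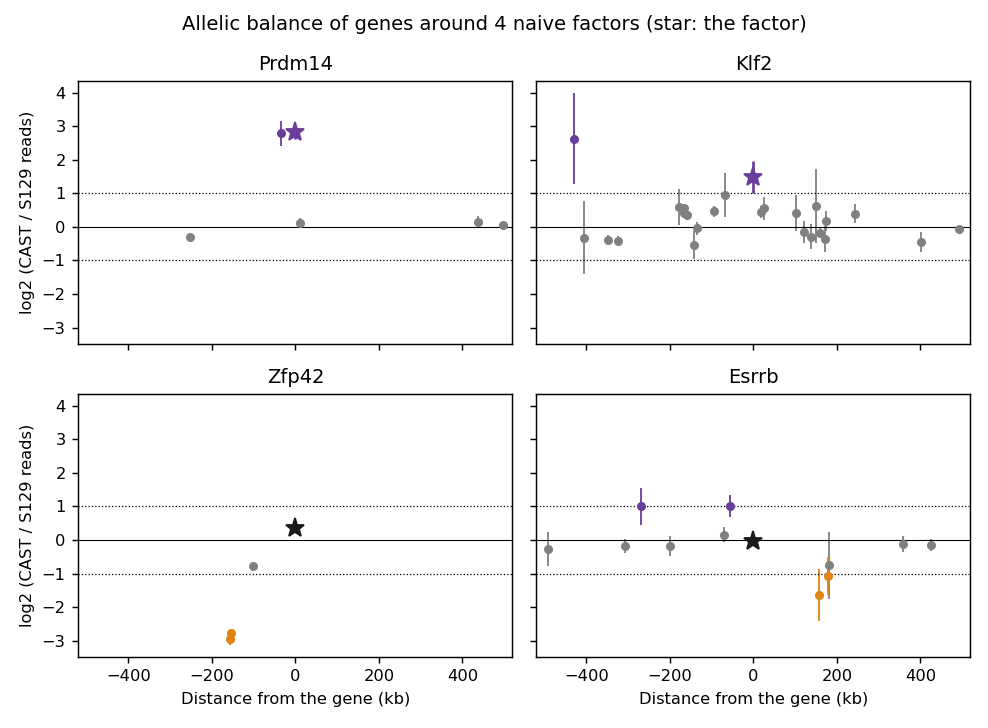
Log2 ratio of CAST to S129 reads (points, bars of 95% normal intervals for counting error) of expressed records within 500 kb of Prdm14, Klf2, Zfp42 and Esrrb, by distance from the gene in kb, where positive is toward higher coordinates and the star is the factor itself. Purple and orange points are ASE toward CAST and S129, grey points are biallelic, and dotted lines mark 2-fold; next to Prdm14 lies Gm29283 at 2.79, and Triml1 near Zfp42 lies at −2.78 and −2.95.

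Relatives of the naive factors and other genes of the network were examined in the same way. Of the other KLF genes, 10 had tested records, 13 in all, and 1 was ASE (7.69%, background 14.1%), namely Klf11, with 145 CAST and 51 S129 reads at 5 variants (74.0% CAST, interval 67.2 to 80.0). Its CAST share was thus about that of Klf2 (73.9%). In the beta-binomial test with a correlation of 0.05 between reads of a gene, the call of Klf11 ended. Of these 13 KLF records, 9 had an adjusted p of at most 0.05 at any fold (background 48.3%). Klf10 had 135 and 107, Klf9 768 and 909, and Klf6 37 and 34. Of 9 tested records of further paralogs 0 were ASE (background 14.1%), while 2 had an adjusted p of at most 0.05 (background 48.3%), and both are records of Esrra, which hold the same 84 CAST and 153 S129 reads. Yy1, the relative of Zfp42, had 851 and 877, and Ubp1, a relative of Tfcp2l1, had 1588 and 1658. Esrrg, Nr5a1 and Gbx1, the closest relatives of Esrrb, Nr5a2 and Gbx2, were below a TPM of 0.2 and are also named after their values were seen.

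In a list of 26 genes of the wider pluripotency network and the LIF pathway, 25 genes had tested records and 1 of 35 records was ASE (2.86%, background 14.1%). This was Tcl1, a coactivator of AKT kinases, with 67 reads from CAST and 137 from S129 at 3 variants (log2 fold change −1.03, SE 0.22, adjusted exact binomial p = 4.90e-06), just past 2-fold. This call was lost in the beta-binomial test at a correlation of 0.05 and with reads scaled to the mean per variant. The most abundant were Dppa5a, an RNA-binding protein gene, with 392 CAST and 719 S129 reads, and the core factors Sox2 with 1172 and 1269 and Pou5f1 with 383 and 342. The median log2 fold change of the 35 records was −0.02. Toward CAST, Prdm14 and Klf2 were farther from balance than any tested record of this list.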

How the data were processed

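The deposited table was used as it stands, with Ensembl identifiers, mm10 coordinates and 1 transcript per gene and biotype, chosen by the authors by RNA polymerase II occupancy at the start site. Per the study's methods, reads were aligned with STAR (version 2.7.2c) to mm10 with the F123 variants, and duplicates were removed with Picard. The TPM values were made by the authors from HTSeq counts, over exons or over exons and introns, scaled by length and library size. The allelic read counts were deposited by the authors as sums over the variants of a record and over both replicates, counted with GATK ASEReadCounter. Other columns deposited by the authors give numbers of variants per record by haplotype. Columns with the authors' fold changes, p-values, allelic ratios and classes were not used.

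In total 16343693 allelic reads were counted, and records of the naive factors hold from 151 to 14135. Exact binomial tests with Benjamini-Hochberg adjustment, Clopper-Pearson intervals and beta-binomial alternatives were computed over the whole table with Python (version 3.11.15), numpy (2.4.6), pandas (2.3.3) and scipy (1.17.1), and tested on simulated data. Standard errors of log2 ratios follow from the counts. Neighboring records lay within 500 kb, did not overlap the gene and had at least 20 allelic reads. Named are all records of the 10 genes, of each list the ASE records and the 3 most abundant, and the nearest tested neighbors of ASE factors and ASE neighbors, up to 3 per factor. The genes and lists were chosen with earlier results of these data known. Promoter sequences are from RefSeq (GRCm38.p6) and gene spans from GENCODE M21, where all 13 transcripts matched by identifier and coordinates.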

Additional observations from a re-analysis of the deposited data

How the results depend on the processing

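The ASE calls of Prdm14 and Klf2 were recomputed under 11 alternatives, 2 of them chosen after seeing the data. The call of Prdm14 held under each of them. That of Klf2 ended in the beta-binomial test with a correlation of 0.05 between reads of a gene, which left 1 ASE record among the naive factors, 487 in the whole table, 3 among neighbors and 0 in the KLF list and in the wider network. The cause was not tested. Klf2 also drops out where records in which S129 differs from the reference at most variants are not tested, which again leaves 1. With a minimum of 1.5-fold in the exact binomial test Gbx2 was called as well (log2 fold change 0.65), and there were 4104 ASE records in all, 15 among neighbors, 2 in the KLF list, 2 among paralogs and 6 in the wider network. Of 141 fold changes of naive factors under these alternatives, 139 kept their call and none reversed. Most of these alternatives change only the test or a limit and leave the fold change itself as it was, so it could not reverse there. Records without a call count as kept even where their adjusted p rose above 0.05, as for Zfp42 and Tfcp2l1 in the beta-binomial tests.

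The 2249 ASE records of the table became 1444 with at least 100 allelic reads, 1117 at a TPM of at least 5, 1305 with only protein-coding records, and 894 with reads scaled to the mean per variant, where 3 neighbors and 0 records of the wider network were left. At a TPM of at least 5, 2 neighbors were ASE, and within 1 Mb 24 were. Without a TPM minimum the KLF list held 2, the other being Klf7 with 3 CAST and 27 S129 reads at a TPM of 0.833, named after its values were seen. The median naive factor lay above 84.6% of expressed records by TPM, above 84.1% of protein-coding ones, and above 86.6% by TPM over exons, a setting chosen after seeing the data. No paired analysis was possible because both replicates are pooled in 1 column and only 1 group was measured, and for the same reason no replicate could be left out.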
